A study of Arabidopsis thaliana with 26 samples.

Results

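The genes described here encode the proteins of the small (40S) subunit of the cytosolic ribosome of Arabidopsis thaliana. They were taken from a list of 60 loci in 26 protein families, and a locus was followed where a probe set of the ATH1 array was annotated to that gene alone. This held for 35 loci in 18 families, so 35 genes were followed, each by 1 probe set, of the 13287 genes with a probe set of their own among the 22810 probe sets of the table. A further 10 loci were covered only by 5 probe sets that name several genes, and for 15 loci the annotation gave no probe set. The families without a member that has a probe set of its own include RPSA, RPS6, RPS15, RPS15a, RPS16, RPS18 and RPS23. The family names follow the published nomenclature of Arabidopsis ribosomal proteins and not a column of the files, which name these genes mostly by locus.

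All plants were Col-0, grown on compost in a growth room in normal air, with 10 h of light, 20 degrees C and 50% humidity, in the ambient CO2 and ambient light arm of a study of systemic signalling. Mature leaves were sampled at 24 h on 2 arrays. Developing leaves, of insertions 19 to 21, were sampled at 2, 4, 12, 24, 48 and 96 h on 4 arrays each, which gives 26 arrays. Replicates are numbered, but no label says that they came from different plants, and the p-values cover only the spread between the samples, which may be technical. The labels do not give the clock hour at which counting began, nor the hours at which the lights went on and off. The samples are whole leaves, in which fewer cells of a type and less RNA per cell cannot be told apart.

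The 40S subunit binds the mRNA and reads its codons, and it is built from ribosomal RNA and a set of proteins that are needed in equal number. It is divided into a head, a platform with the neck beside it, and a body. In Arabidopsis most of these proteins are encoded by several paralogous genes, and demand for them is known to be highest in young, growing tissue. Of the 35 genes, 12 encode proteins of the head, 9 of the platform and neck and 14 of the body, as placed in the structures of yeast and human ribosomes.

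Values are MAS5 intensities on a linear scale, in which every array was scaled to the same trimmed mean. They depend on the probe as well as on the transcript, so only changes of a gene, and not levels of different genes, are compared. Each test was a limma contrast or F-test on log2(intensity + 4.35), fitted to all 13648 probe sets that passed a filter on dim signal, with p adjusted over all of them and a threshold of 0.05. Fold changes are on that scale, which understates the change of dim probe sets. All 35 genes passed the filter, and 31 of them lay at or above the 90th percentile of mean signal. Arrays of a group correlated with a mean r of 0.967 (developing leaves at 24 h) to 0.981 (2 h). RNA integrity was read from the actin control, as log2 of its 3 prime over its 5 prime signal, which was 1.99 and 1.20 on the mature arrays. In developing leaves it lay within 2.43 to 2.77 at 2 h, 2.55 to 2.81 at 4 h and 1.80 to 2.62 at 12 h. Later it lay within 1.71 to 2.60 (24 h), 1.51 to 2.71 (48 h) and 1.22 to 2.28 (96 h). The actin ratio thus moved with time. Of the mature arrays, the one at 1.99 lay within the range of developing leaves at 24 h and the one at 1.20 below it. Counts with the actin ratio as a covariate stand beside the results. The same ratio of the GAPDH control was 0.149 and 0.757 on the mature arrays and did not follow that of actin in developing leaves, with 0.340 to 0.844 at 12 h and 0.185 to 0.474 at 2 h, and no fit used it. Of 6 listed mesophyll genes, only the Rubisco activase gene RCA had a probe set of its own. Its intensity averaged 5850.1 ± 1943 in mature leaves and 4252 ± 1283 in developing leaves at 24 h (SD, n = 2 and 4; log2 0.47, adjusted p = 0.0291), and its part in the results was not tested. The root gene PYK10, at a mean of 9.33 in mature leaves and 21.4 in developing leaves at 24 h, was too dim for the filter, and the listed genes of dividing cells, flowers, seeds, vascular tissue, epidermis and senescence had no such probe set.

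Over the 6 times in developing leaves, nearly all of these genes changed, mostly by a modest amount. The limma F-test called 34 of the 35, or 97.1%, against 62.4% of all probe sets tested. The ratio of the highest to the lowest time mean had a median of 1.39, against 1.42 over all probe sets tested, and it was under 1.5 for 21 genes and at least 2 for 5. The gene not called was RPS24 AT3G04920 (adjusted p = 0.0704). With the authors' scaling, the highest time was 4 h for 15 genes, 24 h for 12 and 2 h for 8. The lowest time was 96 h for 21 genes, 12 h for 11, 48 h for 2 and 2 h for 1. The high points at 24 h depend on that scaling, since under quantile normalization only 3 of the 35 genes had a positive log2 fold at 24 h against 2 h, and the median was -0.18. The map shows the fold changes with the authors' scaling.

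**Figure D1:**
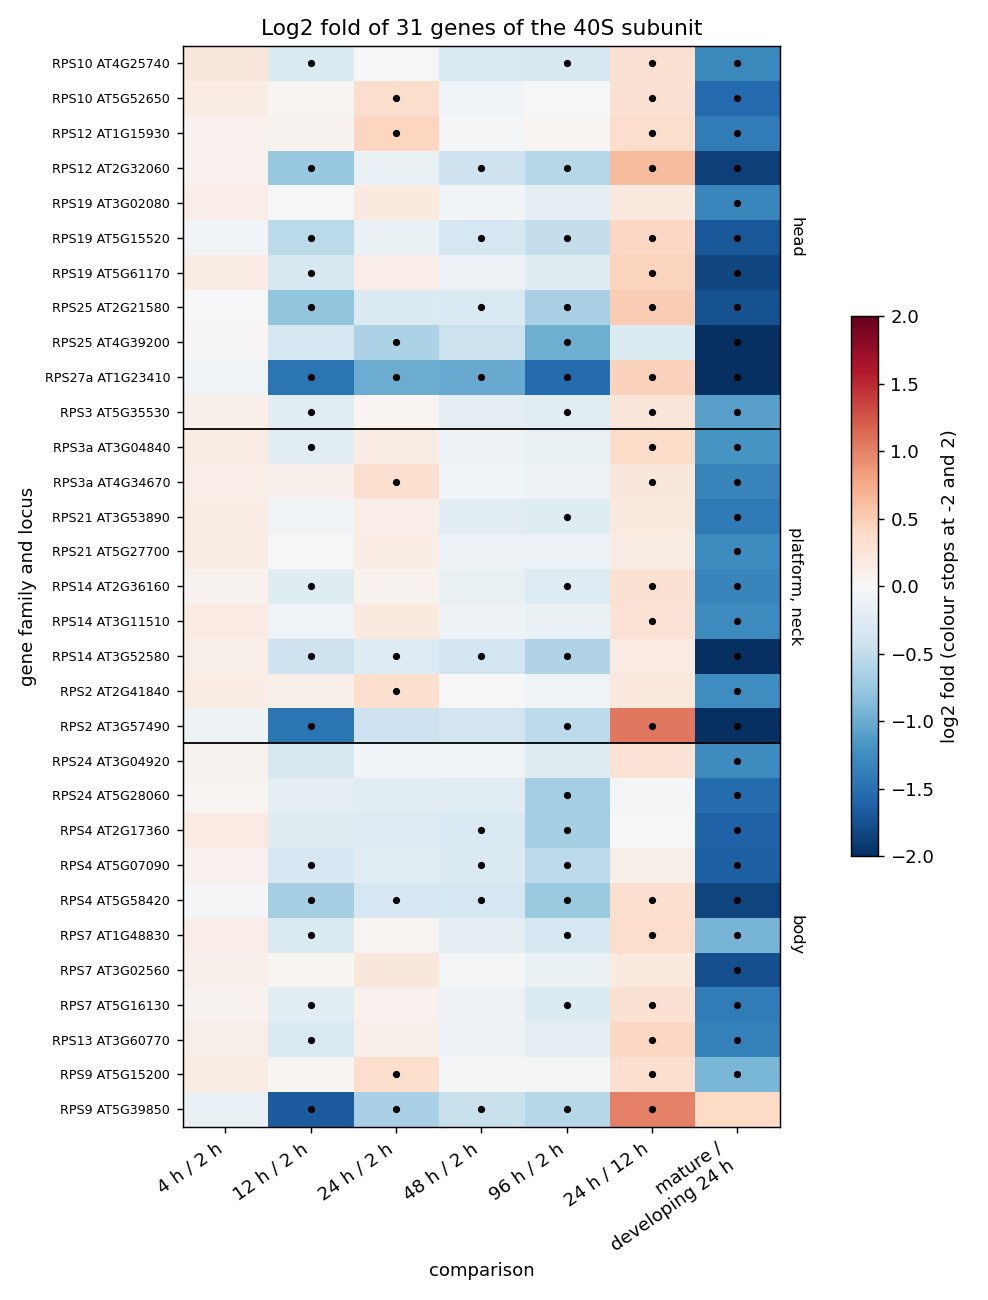
Log2 fold of 31 of the 35 genes (rows, grouped by the region of the subunit) in 7 comparisons (columns), with a dot where limma called the change at an adjusted p under 0.05. Blue means lower in the group named first. The mature column is blue for 30 of the 31 with RPS9 AT5G39850 as the exception, and the 12 h, 48 h and 96 h columns hold dots on blue cells only.

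Among the 6 genes with the smallest F-test p were RPS27a AT1G23410, RPS14 AT3G52580, RPS12 AT2G32060 and RPS9 AT5G39850. RPS27a is made as a fusion to ubiquitin, from which it is cut, and sits in the head. Its arrays read 187, 259.8, 225 and 219 at 2 h, 229.9, 180.2, 187 and 244 at 4 h, 97.5, 54.1, 73.0 and 93.6 at 12 h, 113, 117, 119 and 90.4 at 24 h, 97.3, 105, 119.9 and 111 at 48 h and 63.0, 72.5, 77.6 and 81.3 at 96 h. Every array from 12 h on lay below every array at 2 h and 4 h.

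RPS14 AT3G52580, of the platform near the exit of the mRNA, read 1034, 1102, 1092 and 1065 at 2 h, 1263, 1173, 1111 and 1094 at 4 h, 821, 763, 915 and 731 at 12 h, 854, 908, 906 and 922 at 24 h, 834, 839.8, 782 and 831 at 48 h and 745, 672, 721 and 676 at 96 h. The 96 h arrays overlapped the 12 h arrays and lay below those of the other times. RPS12 AT2G32060, of the beak of the head, read 1420.4, 1671, 1505 and 1589.8 at 2 h, 1732, 1844, 1561 and 1423 at 4 h, 939.8, 873, 976 and 870.3 at 12 h, 1376, 1379, 1399 and 1502 at 24 h, 1214, 1316, 1058 and 1072 at 48 h and 1157, 1050.2, 1037 and 912 at 96 h. Its 12 h arrays overlapped those of 96 h and lay below the rest. RPS9 AT5G39850, a body protein at the entry of the mRNA channel, read 205, 181, 173 and 153 at 2 h, 211, 142, 168 and 128 at 4 h, 70.4, 60.6, 39.2 and 46.7 at 12 h, 113, 126, 98.9 and 109 at 24 h, 180.1, 103, 117 and 129 at 48 h and 135, 111, 106 and 119 at 96 h. At 12 h all 4 arrays lay below those of every other time, while the times from 24 h on overlapped each other.

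**Figure D2:**
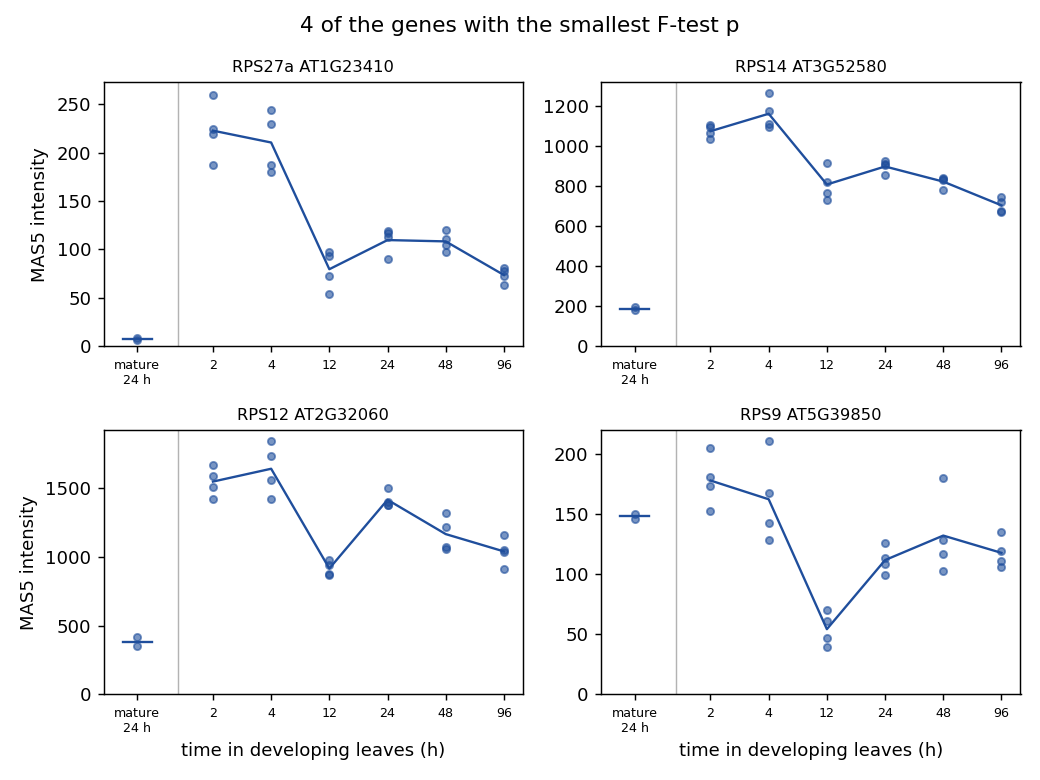
MAS5 intensity of 4 genes among the 6 with the smallest F-test p, with 1 point per array, a line through the means of the developing leaves and a bar at the mean of the mature leaves (left). RPS9 and RPS12 dip at 12 h, RPS27a stays low from 12 h on, and the mature arrays of all but RPS9 lie below those of every time.

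At 4 h against 2 h none of the 35 genes passed the test. In this comparison limma called 1.34% of all probe sets higher and 0.996% lower, and 1 of the genes had an unadjusted p under 0.05. The fold was positive for 27 of the 35, with a median of 0.11 against -0.02 over all probe sets. RPS10 AT4G25740, a head protein, had the highest fold, with 1171, 1161, 1194 and 1234 at 4 h against 896, 1023, 1088 and 1062 at 2 h. Its arrays did not overlap, but the log2 fold of 0.23 ± 0.12 (SE) did not pass (adjusted p = 0.503). Under quantile normalization the median of the genes was -0.00, so the small shift upward was not seen with that scaling.

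At 12 h against 2 h, 20 of the 35 genes (57.1%) fell and none rose. Over all probe sets, 18.6% were lower and 20.6% higher. The median log2 fold of the 40S genes was -0.29, against 0.04 over all probe sets. By region, 8 of the 12 head genes fell, 4 of the 9 platform and neck genes and 8 of the 14 body genes. RPS9 AT5G39850 read 70.4, 60.6, 39.2 and 46.7 at 12 h, against 205, 181, 173 and 153 at 2 h, with no overlap and a log2 fold of -1.66 ± 0.16 (adjusted p = 5.49e-09). RPS2 AT3G57490, which lies at the neck beside the entry of the mRNA channel, read 239.7, 157, 259.7 and 268 at 12 h, against 514, 656, 649 and 731 at 2 h. All of its 12 h arrays were below all 2 h arrays, and the log2 fold was -1.47 ± 0.16 (adjusted p = 2.16e-08). RPS27a AT1G23410 fell by 2.75 times, to a mean of 79.6 ± 20.1 at 12 h against 223 ± 29.8 at 2 h (SD, n = 4 each; log2 -1.46 ± 0.14, adjusted p = 6.46e-09). In all, 5 genes were lower by 2-fold or more, a count not made over all probe sets. None of the 3 described here overlapped between the times. They were named for being among the largest called falls, and such separation was not counted over all probe sets.

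Other falls at 12 h were smaller. In the head, RPS25 AT2G21580, a protein next to the exit site of the tRNA, fell by 1.72 times and RPS12 AT2G32060 by 1.69 times. In the body, RPS4 AT5G58420 fell by 1.58 times. The 15 genes that did not pass had log2 folds between -0.35 (RPS25 AT4G39200) and 0.12 (RPS2 AT2G41840). Of the 20 falls, 14 were called whichever of the 8 arrays was left out. RPS14 AT2G36160, RPS3a AT3G04840, RPS10 AT4G25740, RPS7 AT5G16130, RPS3 AT5G35530 and RPS19 AT5G61170 lost the call without 3 to 6 of the arrays, taken 1 at a time, and the adjusted p then ranged up to 0.19. With the actin ratio as a covariate 18 were lower.

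Between 12 h and 24 h the direction turned. Limma called 23 of the 35 genes (65.7%) higher at 24 h than at 12 h and none lower, against 17.6% higher and 20.7% lower over all probe sets. The median log2 fold was 0.31, against -0.03 over all probe sets. The called genes were 10 of 12 in the head, 5 of 9 in the platform and neck and 8 of 14 in the body. RPS2 AT3G57490 read 357, 601, 595 and 389.9 at 24 h against 239.7, 157, 259.7 and 268 at 12 h, without overlap, though its 24 h arrays fell into a high and a low pair (log2 1.05 ± 0.16, adjusted p = 4.92e-06). RPS9 AT5G39850 averaged 112 ± 11.3 at 24 h and 54.2 ± 14.0 at 12 h, and its log2 fold was 1.01 ± 0.16 (adjusted p = 1.55e-05). RPS12 AT2G32060 rose by 1.54 times to 1414 ± 59.5 at 24 h, against 915 ± 51.9 at 12 h, without overlap (adjusted p = 3.74e-06). RPS25 AT4G39200 had the lowest fold of the set, -0.28 ± 0.22 on the log2 scale, and did not pass (adjusted p = 0.336).

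The count at 24 h against 12 h depended on the scaling. Under quantile normalization 10 genes were higher and 2 lower, 9 of the 23 among the higher ones, and the median was 0.05. With only these 2 groups in the fit 15 were higher, and with the actin ratio added 24. The falls at 12 h against 2 h and the rises at 24 h against 12 h share the 12 h arrays, so their calls are not independent. In both, 17 genes were called, and this overlap was not counted over all probe sets.

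At 24 h against 2 h the genes split. Of the 35, 6 rose and 6 fell, or 17.1% each way, against 10.1% higher and 10.8% lower over all probe sets. The median log2 fold was 0.04, against -0.00 over all probe sets. Among the 4 largest falls were those of RPS27a AT1G23410 (-0.99 ± 0.14, adjusted p = 2.02e-05), RPS9 AT5G39850 (-0.65 ± 0.16, 0.00546) and RPS25 AT4G39200 (-0.63 ± 0.22, 0.0425). RPS25 AT4G39200 varied between arrays, with 1387, 1677, 1192 and 1050.3 at 24 h against 2268, 1911, 1894 and 2046 at 2 h, and did not overlap. Its call was lost without any 1 of 7 of the 8 arrays, all but 24 h replicate 2, with adjusted p from 0.058 to 0.128. RPS4 AT5G58420 and RPS14 AT3G52580 fell as well.

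Among the rises at 24 h against 2 h was that of RPS12, where AT1G15930 read 3552, 2335, 2344 and 3132 at 24 h against 1962, 1869, 2305 and 2212 at 2 h, without overlap, with 24 h replicates 1 and 4 well above the other two (log2 0.43 ± 0.11, adjusted p = 0.00567). RPS10 AT5G52650 read 2563, 2271, 2478 and 2612 at 24 h against 1845, 1685, 2318 and 1942 at 2 h and overlapped by 1 array of each group (log2 0.36 ± 0.09, adjusted p = 0.00622). RPS9 AT5G15200 read 3635, 2484, 2776 and 3239 at 24 h against 2436, 2035, 2573 and 2405 at 2 h and overlapped likewise (log2 0.35 ± 0.10, adjusted p = 0.0167). RPS3a AT4G34670 and RPS2 AT2G41840 rose as well.

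None of these 6 rises was called under quantile normalization, where 14 genes were lower, none higher, and the median was -0.18. None was called with only the 2 groups in the fit either, where the 4 calls were falls. In the fit of all groups, RPS9 AT5G15200 lost its call without 24 h replicate 1 (adjusted p = 0.0768), 24 h replicate 4 (0.0536) or 2 h replicate 2 (0.0802), and RPS2 AT2G41840 without 24 h replicate 1 (0.168), 2 h replicate 1 (0.0544) or 2 h replicate 2 (0.128). Rises in 40S transcripts at 24 h over 2 h therefore depend on how the arrays are scaled. With the actin ratio as a covariate 3 genes were higher and 6 lower.

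At 48 h against 2 h, 11 of the 35 genes (31.4%) fell and none rose, against 12.7% lower and 11.2% higher over all probe sets. The median over the 35 was -0.19 on the log2 scale, against -0.01 over all probe sets, and 34 of the 35 folds were negative. The falls covered 5 head genes, 1 of the platform and neck, and 5 of the body. RPS27a AT1G23410 read 97.3, 105, 119.9 and 111 at 48 h against 187, 259.8, 225 and 219 at 2 h, without overlap (log2 -1.01 ± 0.14, adjusted p = 9.40e-06). RPS12 AT2G32060 fell by 1.33 times, to 1165 ± 123 at 48 h against 1547 ± 108 at 2 h (adjusted p = 0.00138). RPS9 AT5G39850 overlapped between the times, with 1 array at 48 h at 180.1, and only just passed (log2 -0.44 ± 0.16, adjusted p = 0.0494).

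The count at 48 h varied with the processing. It was 24 under quantile normalization, 7 without the filter, 7 without the variance trend and 9 with the actin ratio added. It was 7 without 48 h replicate 1, 48 h replicate 2 or 2 h replicate 2, and 6 without 2 h replicate 4. Only 5 of the 11 falls were called whichever array was left out, and RPS9 AT5G39850 was not among them, with adjusted p from 0.079 to 0.19 without 2 h replicates 1, 2 or 3 or 48 h replicates 2, 3 or 4.

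At 96 h against 2 h, 21 of the 35 genes (60%) fell and none rose, against 22.7% lower and 19.1% higher over all probe sets. Over the 35, the median log2 fold was -0.27, against -0.02 over all probe sets. Falls took in 8 of 12 head genes, 4 of 9 of the platform and neck and 9 of 14 of the body. RPS27a AT1G23410 read 63.0, 72.5, 77.6 and 81.3 at 96 h against 187, 259.8, 225 and 219 at 2 h, without overlap and with a log2 fold of -1.54 ± 0.14 (adjusted p = 4.14e-09). RPS25 AT4G39200 read 1048, 953, 1673 and 659.7 at 96 h against 2268, 1911, 1894 and 2046 at 2 h. One array at 96 h stood far above the other 3, yet none reached 2 h, and the log2 fold was -0.98 ± 0.22 (adjusted p = 0.000777). RPS4 AT5G58420, a body protein, read 792, 852, 743 and 667 at 96 h against 1307, 1353, 1116 and 1320.5 at 2 h, without overlap (log2 -0.74 ± 0.11, adjusted p = 8.87e-06).

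All 3 RPS4 genes were lower at 96 h, with log2 folds of -0.67 for AT2G17360 and -0.53 for AT5G07090 beside -0.74 for AT5G58420. RPS24 AT5G28060, of the body, fell by 1.60 times, while its paralogue AT3G04920 had a log2 fold of -0.24 ± 0.13 and did not pass (adjusted p = 0.139). Of the 21 falls, 16 were called whichever array was left out. Among the others, RPS14 AT2G36160, RPS21 AT3G53890, RPS10 AT4G25740 and RPS3 AT5G35530 lost the call without 2 to 5 of the arrays, taken 1 at a time. With the actin ratio as a covariate 20 genes were lower, and under quantile normalization 31. The comparisons at 12 h, 48 h and 96 h share the 2 h arrays, so their calls are not independent. In all 3, 10 genes were lower, and this overlap was not counted over all probe sets.

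Against 2 h, the genes with the dimmer probe sets had the lower folds at every later time. Mean signal was taken over all arrays, including those that form each fold, so a gene that falls also has a lower mean. Across the 35 genes, Spearman's rho between mean signal and log2 fold was 0.63 at 4 h against 2 h, where no gene was called. It was 0.87 (12 h), 0.89 (24 h), 0.82 (48 h) and 0.85 (96 h) against 2 h, and -0.35 at 24 h against 12 h. For mature against developing leaves it was 0.41. Under quantile normalization rho was 0.32 (4 h), 0.80 (12 h), 0.65 (24 h), 0.60 (48 h) and 0.76 (96 h) against 2 h. With that scaling it was -0.69 at 24 h against 12 h and 0.49 for mature against developing leaves. The points share their arrays, and signal reflects probe sequence as well as transcript, so this is a description of these probe sets, and the part of probe response in the folds was not tested.

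Mature leaves held far less of these transcripts than developing leaves of the same hour. Limma called 34 of the 35 genes (97.1%) lower in mature leaves and none higher, against 37.6% lower and 24.1% higher over all probe sets. The median log2 fold was -1.40, against -0.15 over all probe sets, and 30 genes were at least 2-fold lower. Falls of that size were not counted over all probe sets. All 12 head genes, all 9 platform and neck genes and 13 of the 14 body genes were lower. RPS27a AT1G23410 read 8.18 and 6.42 in mature leaves, near the floor of the array, against 113, 117, 119 and 90.4 in developing leaves. Its log2 fold of -3.29 ± 0.18 (adjusted p = 1.40e-14) moved to -3.74 with a pseudocount of 1 and to -2.17 with one of 21.7, since at such low signal the pseudocount sets the size.

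RPS14 AT3G52580 read 179.7 and 196 in mature leaves against 854, 908, 906 and 922 in developing leaves, a log2 fold of -2.23 ± 0.09 (adjusted p = 3.12e-17). RPS2 AT3G57490 read 99.7 and 109 in mature leaves against 357, 601, 595 and 389.9 in developing leaves (log2 -2.14 ± 0.19, adjusted p = 2.43e-10). In both genes every mature array lay below every developing array, and the fitted means were 4.69 times lower for RPS14 and 4.39 times lower for RPS2.

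RPS9 AT5G39850 was the exception, and it is singled out here after its values were seen. It read 146 and 150.4 in mature leaves against 113, 126, 98.9 and 109 in developing leaves, so both mature arrays lay above all 4 developing arrays. The log2 fold of 0.40 ± 0.20 did not pass (adjusted p = 0.085), but it did with only these 2 groups in the fit (adjusted p = 0.0396). Its paralogue AT5G15200, for the same protein, read 1471 and 1736 in mature leaves against 3635, 2484, 2776 and 3239 in developing leaves and fell by 1.88 times (adjusted p = 6.55e-07). Of the 34 falls, 33 were called whichever of the 6 arrays was left out, and 34 genes were lower under quantile normalization, as they were with the actin ratio in the fit. The 24 h arrays of both leaf ages had the lowest correlations among replicates, so the shared spread may understate theirs. Of the 21 genes lower at 96 h than at 2 h, 20 were also lower in mature leaves. This share is no higher than among all 35 genes, of which 34 were lower there.

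**Figure D3:**
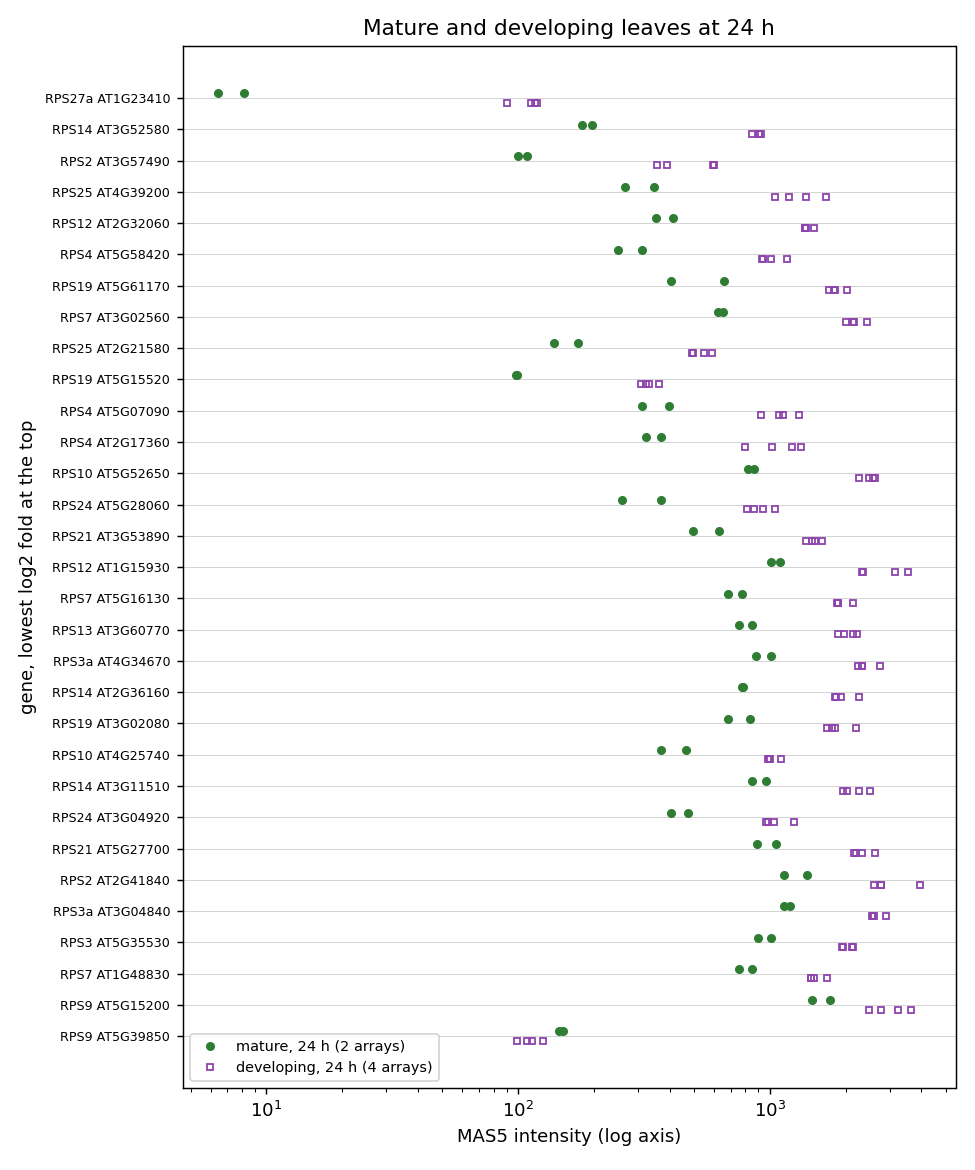
MAS5 intensity (log axis) of 31 of the 35 genes on each array of mature leaves (filled circles, 2 arrays) and of developing leaves at 24 h (open squares, 4 arrays), sorted with the lowest log2 fold at the top. The circles lie left of the squares for all the genes shown but RPS9 AT5G39850, whose circles lie right of the squares. Separation of this kind was not counted over all probe sets.

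Probe sets of genes for the same protein did not always move together. For 21 pairs of paralogues in 13 families the difference of their log2 values was taken within each array, which leaves out the overall scaling, and tested over the 6 times with a permutation test of the F statistic (100000 resamples, 24 developing arrays). The difference does not take out a probe response that depends on signal. In RPS12, RPS9, RPS2 and RPS14 below, the gene that lost on its paralogue had the dimmer probe set at 2 h, and in RPS3a the brighter one. The part of probe response in these differences was not tested. Of the 21 pairs, 13 passed after adjustment over the pairs. Pairs of other probe sets were not tested, so no share stands beside this count. Over the same times, the F-test called 62.4% of all single probe sets tested. The clearest was RPS12, where AT1G15930 gained on AT2G32060 by 0.83 on the log2 scale at 12 h relative to 2 h (permutation p = 1e-05, the smallest these resamples can give; adjusted p = 0.00021). AT1G15930 itself read 1945, 2327, 2335 and 2177 at 12 h against 1962, 1869, 2305 and 2212 at 2 h, with overlap and no call, while AT2G32060 had 870.3 to 976 at 12 h, against 1420.4 to 1671 at 2 h.

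In RPS9, AT5G15200 gained on AT5G39850 by 1.70 at 12 h, by 1.00 at 24 h and by 0.53 at 96 h, each relative to 2 h (permutation, adjusted p = 0.000315). AT5G15200 read 2053, 2485, 2605 and 2544 at 12 h, level with 2 h. In RPS2, AT2G41840 gained on AT3G57490 by 1.58 at 12 h and by 0.45 at 96 h (permutation, adjusted p = 0.00142). Its arrays at 12 h, 2357, 2502, 2796 and 2689, overlapped those at 2 h, 2399.6, 2086, 2475 and 2579. In RPS14, AT3G11510 gained on AT3G52580 by 0.32 at 12 h and by 0.47 at 96 h (permutation, adjusted p = 0.00172). AT3G11510 read 1574, 1758, 1859 and 1718 at 96 h against 1812, 1863, 1979 and 1950.5 at 2 h and was not called.

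RPS3a, a platform protein, split by less. AT3G04840 lost 0.31 on AT4G34670 at 12 h and 0.17 at 24 h relative to 2 h (permutation, adjusted p = 0.00142). AT3G04840 read 1927, 1961, 2213 and 2102 at 12 h against 2303, 2135, 2560.4 and 2554 at 2 h, and AT4G34670 read 1846, 2078, 2061 and 2237 at 12 h against 1819, 1744, 2058 and 2080.2 at 2 h. Both overlapped, with the first mostly lower and the second mostly level. Among the pairs with larger p, RPS19 AT3G02080 gained 0.53 on AT5G15520 at 12 h (adjusted p = 0.00259) and RPS24 AT3G04920 gained 0.43 on AT5G28060 at 96 h (adjusted p = 0.00264), both by the permutation test.

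The 8 pairs that did not pass were in RPS4 (3 pairs), RPS7 (2), RPS19, RPS21 and RPS25. The RPS21 genes, whose protein lies beside the platform, gave the least sign of parting, with a range of 0.13 over the times (permutation, adjusted p = 0.622). For RPS25 the range was 0.79, but AT4G39200 varied widely between arrays and the pair missed the threshold (permutation, adjusted p = 0.106). A miss does not show that 2 genes moved alike. Between mature and developing leaves at 24 h, AT5G15200 lost 1.31 on AT5G39850, and AT3G11510 gained 0.96 on AT3G52580. With 2 arrays against 4 the exact permutation test cannot go below p = 0.0667, which both pairs reached.

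**Figure D4:**
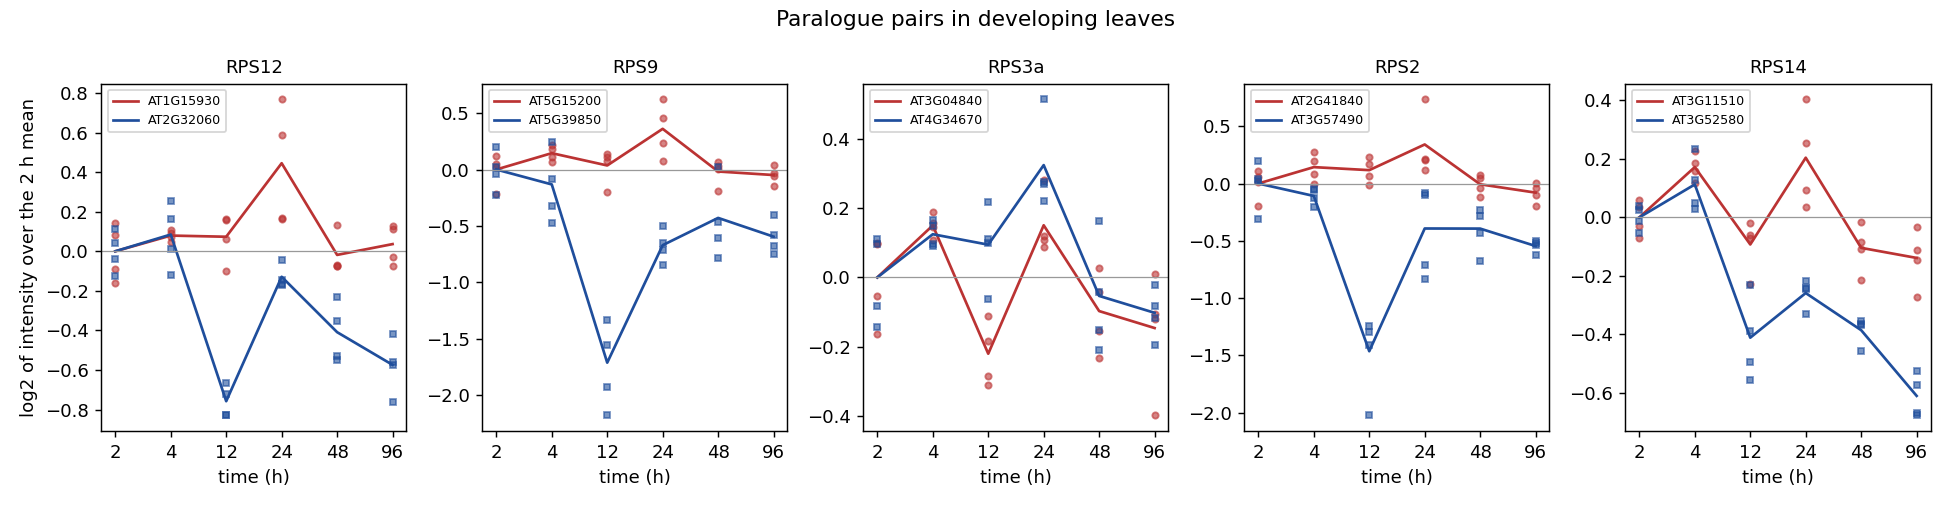
Log2 of intensity over its 2 h mean for both genes of the 5 families with the smallest permutation p, against time, with 1 point per developing array and lines through the means. The blue gene (squares) dips at 12 h in RPS12, RPS9 and RPS2 while the red gene (circles) does not, in RPS14 the blue gene is lowest at 96 h, and in RPS3a the red gene is the lower one at 12 h.

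The remaining genes moved within narrow limits in developing leaves. RPS13 AT3G60770, a body protein and the only measured member of its family, read 1380.5, 1471, 1780.3 and 1508 at 12 h against 1778, 1757, 2023 and 2014 at 2 h (log2 -0.30 ± 0.08, adjusted p = 0.00345), with overlap by 1 array. RPS3 AT5G35530, which lines the mRNA entry from the head, had log2 folds of -0.21 at 12 h and -0.22 at 96 h against 2 h. In RPS7, AT1G48830 fell by 1.28 times and AT5G16130 by 1.21 times at 96 h, while AT3G02560 had a log2 fold of -0.13 ± 0.09 and did not pass. In RPS19, AT5G15520 fell at 12 h, 48 h and 96 h (-0.54, -0.35 and -0.47 on the log2 scale), and AT3G02080 was called at none of these times. Of the RPS21 genes, AT3G53890 fell at 96 h (-0.25), and AT5G27700 was called at no developing time. In mature leaves the genes named here were 1.90 to 3.40 times lower than in developing leaves.

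Genes that work with the small subunit were followed from further lists, of which the annotation covered only part. Of 86 listed genes of the large (60S) subunit, 65 were tested. Against 2 h, falls numbered 26 (12 h), 22 (48 h) and 44 (96 h), with none higher, and 35 rose at 24 h against 12 h with none lower. At 24 h against 2 h, 5 were higher and 7 lower. In mature leaves 64 of the 65 were lower. Over all probe sets, 18.6% (12 h), 12.7% (48 h) and 22.7% (96 h) were lower than at 2 h. At 24 h against 2 h 10.1% were higher and 10.8% lower, 17.6% rose at 24 h against 12 h, and 37.6% were lower in mature leaves. The same shares apply to the lists that follow. All of these lists were counted with the authors' scaling only. The rises of the 40S genes at 24 h against 12 h depended on that scaling, and for the lists this was not tested. The median log2 fold of the 40S genes was -0.29 at 12 h, against -0.19 for the 60S genes, and -0.27 at 96 h, against -0.33 for the 60S genes. It was 0.31 at 24 h over 12 h, against 0.25, and -1.40 in mature leaves, against -1.44. The difference between the subunits was not tested.

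Of 37 listed genes of ribosome biogenesis, which process ribosomal RNA and assemble both subunits in the nucleolus, 13 were tested. At 12 h 12 of the 13 were lower than at 2 h, with a median log2 fold of -0.95, at 24 h 12 were higher than at 12 h, and in mature leaves all 13 were lower (median -1.32). The largest falls at 12 h were those of AT3G22660 (-2.09), AT3G05060 (-1.37), AT1G52930 (-1.22) and AT3G15460 (-1.19), and PESCADILLO (AT5G14520), which is needed for 60S assembly, fell by 0.69. DIM1A, a methylase of the small subunit's RNA, was the gene not called at 12 h. Of 40 listed translation initiation and elongation factors, 7 were tested. At 12 h 6 were lower, among them EIF4A-2, an mRNA helicase (-0.70), and AT4G27130 was higher (1.64). At 24 h 4 were higher than at 12 h and 1, AT4G27130, was lower.

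Of 12 listed nuclear genes for the 30S subunit of the plastid ribosome, 3 were tested, and none was lower at 12 h. AT5G24490 (1.29) and AT3G13120 (0.33) were higher at 12 h than at 2 h, and in mature leaves AT1G64510 and AT3G13120 were lower by 0.89 and 0.83 on the log2 scale. Of 11 listed genes of the TOR, S6 kinase and SnRK1 pathways, which adjust ribosome production to nutrients, 2 were tested. RAPTOR1, a partner of the TOR kinase, had a log2 fold of 0.02 at 12 h against 2 h and of 0.33 in mature against developing leaves, and passed in neither. AT3G10540 rose by 0.36 at 24 h against 12 h. None of the 3 listed RACK1 genes, whose protein sits on the head, had a probe set of its own.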

How the data were processed

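Total RNA of 26 leaf samples was hybridised to Affymetrix ATH1 arrays. The authors deposited 1 intensity per probe set and array, made with MAS5 per the submitters' processing notes, on a linear scale. The MAS5 version and settings and any detection calls were not given in the sources used here. Each array had the same mean after trimming 2% at each end, and this scaling was kept. The 64 AFFX controls were left out.

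Values were taken as log2(intensity + 4.35), where the pseudocount is 10% of the overall median. Probe sets with a mean under the 40th percentile were left out, which kept 13648, of which 7445 named 1 gene. Tests used limma 3.58.1 in R 4.3.3, on all 7 groups together. The prior variance followed intensity (trend), and p was adjusted by Benjamini-Hochberg over the 13648. With 2 mature arrays, the spread came mostly from the developing groups. The number of arrays limits the precision. The fit was tested on simulated data.

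The genes named in full are the up to 4 largest called rises and falls of each comparison, the 6 smallest F-test p and the 5 paralogue pairs with the smallest p. Some genes are not reported here on their own, but all 35 enter each count and median. The members and lists were chosen with earlier results of these data known. The 60S list was written by hand, since the annotation held no descriptions. No genome build is named for the table, so no coordinates are printed, and no sequences were used here. Alternatives were other pseudocounts, no filter, quantile normalization, the replicate number as a block, no variance trend, only the groups compared, array weights, the actin ratio as a covariate and leaving out each array.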

Additional observations from a re-analysis of the deposited data

Results flagged for a closer look

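In 210 groups of 4 developing arrays (35 genes at 6 times), 1 array stood apart from the other 3 by more than Dixon's 95% limit in 16, of which 14 are given here. Chance alone flags about 1 group in 20. On replicate 1 at 24 h, RPS2 AT2G41840 (3967), RPS3a AT3G04840 (2899.5) and RPS7 AT5G16130 (2134) were high, and on replicate 4 RPS10 AT4G25740 (1112) was. At 2 h, replicate 2 was low for RPS7 AT5G16130 (1612).

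At 4 h, replicate 1 was low for RPS3 AT5G35530 (2002) and high for RPS19 AT3G02080 (1881), and replicate 2 was low for RPS7 AT1G48830 (1516). At 12 h, replicate 1 was low for RPS19 AT5G61170 (1143). At 48 h, replicate 2 was high for RPS12 AT1G15930 (2287) and replicate 3 low for RPS14 AT3G52580 (782). At 96 h, replicate 1 was low for RPS3 AT5G35530 (1581) and RPS21 AT3G53890 (1043), and replicate 2 high for RPS7 AT3G02560 (1838). All values are MAS5 intensities.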

How the results depend on the processing

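The number of 40S genes called held within 1.5 times the reported count under every alternative except the following and, at 48 h, leaving out some arrays. At 48 h against 2 h (11 reported) it was 7 without the filter, 7 without the variance trend and 24 under quantile normalization. At 24 h against 12 h (23) it was 12 under quantile normalization and 15 with only the groups compared, and at 24 h against 2 h (12) it was 4 with only the groups compared. Leaving out 1 array gave, against 2 h, 0 to 0 calls for 4 h, 14 to 19 for 12 h, 8 to 15 for 24 h, 6 to 10 for 48 h and 17 to 21 for 96 h. It gave 18 to 23 at 24 h against 12 h, 33 to 34 for mature against developing leaves, 30 to 35 for the F-test and 13 to 15 paralogue pairs. Under quantile normalization the rise of RPS9 AT5G15200 at 24 h against 2 h turned to -0.0795. The cause of these shifts was not tested. Quantile normalization of the paralogue differences was added after the data were seen and gave 13 pairs again.

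The replicate number as a block left, against 2 h, 19 calls for 12 h, 13 for 24 h, 10 for 48 h and 21 for 96 h, with 23 at 24 h against 12 h, 34 in mature leaves and 34 in the F-test. The correlation of same-numbered arrays, each as its deviation from the group mean, was from -0.03 to 0.30 at 12 h and 2 h. It was from 0.03 to 0.36 at 24 h and 2 h, and from -0.11 to 0.06 at 96 h and 2 h. Whether the numbers pair the samples is thus not settled. No alternative called a 40S gene higher at 12 h, 48 h or 96 h against 2 h. Dim signal limits RPS27a AT1G23410 in mature leaves.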

Other observations

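Of the 5 probe sets that several 40S genes share, 4 are given here. They lie outside the set described above, and their values cannot be assigned to a gene. All 4 were lower in mature than in developing leaves by limma, with log2 folds of -0.75 for RPS2, -0.67 for RPS23, -0.81 for RPS3 and -1.20 for RPS16. The shared RPS2 probe set averaged 1691 ± 28.6 in mature leaves and 2853 ± 223 in developing leaves at 24 h (SD, n = 2 and 4). At 12 h against 2 h RPS2 (-0.23 ± 0.08 (SE), adjusted p = 0.019) and RPS3 (-0.41 ± 0.12, adjusted p = 0.00912) were lower, and RPS23 and RPS16 were not called. RPS23 and RPS16, whose families have no probe set naming 1 gene, had log2 folds of 0.28 and 0.37 at 24 h against 2 h, with adjusted p = 0.0722 and 0.0355.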
